A study of Homo sapiens with 9 samples.

Results

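The respiratory complexes II to V of the inner mitochondrial membrane were followed through their nuclear genes. The members are the protein-coding genes outside the mitochondrial chromosome whose symbol is SDHA, SDHB, SDHC, SDHD or CYC1, or begins with UQCR, with ATP5, or with COX and a digit, leaving out readthrough genes. Of the 58735 genes in the count table, 60 met this rule. They are 4 genes of complex II, 10 of complex III, 17 of subunits and 9 of assembly factors of complex IV, 18 of ATP synthase (complex V) and 2 of its regulators. The data are RNA-seq of A549, an established lung adenocarcinoma line, transfected with plasmids by jetPRIME. Of the 9 libraries, 3 were controls (titled PC3, with PC3.1, PC3.2 and PC3.3 in their treatment labels), 3 had a plasmid for the long non-coding RNA LINC00996 (titled L996), and 3 had a plasmid for the long non-coding RNA AP001189.3 (titled RP11). The study names PC3.1 as its control plasmid, so whether the control labels stand for 1 plasmid or for 3 cannot be told, and they were taken as 3 replicates of 1 control. Below, the plasmid groups are those of LINC00996 and AP001189.3, although the controls had a plasmid too. The paper names VectorBuilder as the maker of both these plasmids and gives no maker for the control. Where both groups differ from control, the vector and the long non-coding RNA therefore cannot be told apart. The paper tells of extraction in triplicate, while the general methods of its supplement tell of 2 biological replicates in each condition. The sources used here give neither the time between transfection and extraction nor whether the libraries of a group came from separate cultures, so the p-values measure only the spread between libraries. Counts over all genes summed to 17062469, 16114345 and 17390680 in the control libraries, 18125447, 15272450 and 18047062 with LINC00996, and 17383842, 15600778 and 16784136 with AP001189.3. Levels are given as CPM (counts scaled to TMM library sizes) to compare groups, and as FPKM, which the authors computed per gene length, to compare genes.

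Complex II passes electrons from succinate to ubiquinone, complex III passes them from ubiquinol to cytochrome c, and complex IV (cytochrome c oxidase) passes them to oxygen. Complexes III and IV pump protons, and complex V lets protons flow back through a rotating ring to make ATP. Complexes III, IV and V hold subunits encoded in the mitochondrial genome together with nuclear ones, whereas every complex II subunit is nuclear.

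Each transfected long non-coding RNA was high in its own group. LINC00996 (ENSG00000242258, chromosome 7 of GRCh38, 150433654 to 150448140) was counted 9, 8 and 4 times in control, 5239, 4373 and 5952 times with its plasmid, and 8, 7 and 8 with AP001189.3. AP001189.3 (ENSG00000254810, chromosome 11, 76654169 to 76656712) was counted 0, 2 and 1 times in control, 0 in each LINC00996 library, and 1660, 1931 and 2378 with its plasmid. The label A549 was checked against marker genes. All 8 epithelial and A549 genes had counts, with KRT8 the most abundant, and their summed CPM was 12318, 12318 and 12415 in the control libraries, 18369, 16101 and 16045 with LINC00996 and 13396, 13978 and 13892 with AP001189.3. The genes of this list did not move together. ALDH1A1, an aldehyde dehydrogenase, had 2879, 2923 and 2982 CPM in control, 5578, 5974 and 5929 with LINC00996 and 3464, 3797 and 3707 with AP001189.3. AKR1B10, an aldo-keto reductase, had 715, 696 and 739 CPM in control, 1379.8, 1377 and 1355 with LINC00996 and 652, 747 and 706 with AP001189.3. Both rose with LINC00996 against control, by a log2 fold change of 0.99 (adjusted p, padj = 3.79e-06) and 0.93 (padj = 9.00e-06), and by 1.02 and 0.93 without LINC00996 replicate 1. CDH1, the epithelial cadherin, had 319.8, 321 and 311 CPM in control, 161, 171 and 181 with LINC00996 and 306, 287 and 280.1 with AP001189.3. It fell with LINC00996 against control, at a log2 fold change of -0.89 (padj = 2.92e-05), and at -0.85 without LINC00996 replicate 1. For KRT7, an epithelial keratin with 1576, 1630.3 and 1718 CPM in control, 2049.6, 1402 and 1355 with LINC00996 and 1641, 1686 and 1757 with AP001189.3, LINC00996 replicate 1 lay above the control libraries and replicates 2 and 3 below them. With AP001189.3 against control, KRT8 rose by a log2 fold change of 0.19 (padj = 0.00259) and ALDH1A1 by 0.32 (padj = 1.58e-05), and AKR1C1 fell, at -0.19 (padj = 0.0093), a call lost without control replicate 2 or AP001189.3 replicate 2 (-0.15 and -0.18). LINC00996 against AP001189.3 was higher for ALDH1A1, AKR1B10 and AKR1C1 (the last lost in 5 of 6 fits that left out a library) and lower for CDH1, and the other 4 genes did not pass with all 6 libraries. Without LINC00996 replicate 1, KRT7 was lower (-0.30) and EPCAM higher (0.35) there, and against control KRT7 was lower (-0.25) and EPCAM (0.33) and AKR1C1 (0.16) were higher (log2 fold changes).

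Markers of other cells were low. The 4 alveolar genes (SFTPC, SFTPB, SFTPA1 and NKX2-1) summed to between 0.0547 and 0.667 CPM, and none had over 6 counts in a library. The 4 leukocyte genes, nearly all from CD14, summed to 10.6, 10.9 and 10.01 CPM in control, 13.8, 12.7 and 11 with LINC00996 and 13.9, 9.95 and 7.51 with AP001189.3, and PTPRC and CD3E had at most 1 and 4 counts in a library. The 3 endothelial genes (most abundant PECAM1) summed to 11.6, 12.3 and 13.1 CPM in control, 5.25, 6.41 and 6.49 with LINC00996 and 9.57, 7.28 and 8.85 with AP001189.3. Control was highest and LINC00996 lowest, without overlap, and VWF had at most 3 counts in a library. PECAM1 fell against control, at a log2 fold change of -1.42 (padj = 2.84e-04) with LINC00996, -1.29 without LINC00996 replicate 1, and -0.80 (padj = 7.03e-04) with AP001189.3. The 4 fibroblast genes (most abundant COL1A1) summed to 21.1, 22.9 and 20.4 CPM in control, 15.1, 14 and 12.1 with LINC00996 and 19.4, 21.8 and 18.6 with AP001189.3. Here the LINC00996 libraries lay below all others, and COL1A2 and DCN had at most 1 count in a library. COL1A1 fell with LINC00996 against control, at a log2 fold change of -0.62 (padj = 0.00635), and at -0.70 without LINC00996 replicate 1. LINC00996 against AP001189.3 was lower for COL1A1, at -0.53 (padj = 0.014), and at -0.60 without LINC00996 replicate 1. PECAM1 was lower there too, at -0.62 (padj = 0.0484), a call lost without LINC00996 replicate 1 (-0.49). Without that library, LUM, with at most 12 counts in a library, was lower than in control (-2.56). Several markers thus moved between the groups that the members are compared in, and their part in the results on members was not tested.

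LINC00996 replicate 1 stood apart from replicates 2 and 3. A chi-square value per gene of the counts of each pair of replicates, near 1 for counting noise alone, was 22.2 and 33.3 between replicate 1 and the other LINC00996 libraries and 3.28 between those. Over the 55 members tested, it was 36.1 and 57.2 against 3.68. Replicate 1 had the top value of its group in 38 of the 55 members, against 44.1% of all genes tested. Across 16090 genes, which are not independent replicates, the level relative to the mean of all libraries followed GC content with Spearman's rho 0.43 in replicate 1, -0.25 and -0.43 in the other LINC00996 libraries, -0.0080, -0.24 and -0.28 in the control libraries and 0.36, 0.23 and 0.21 with AP001189.3. Among the members, control replicate 3 also differed from control replicates 1 and 2 (18.8 and 12 per gene, against 4.11 between those), where all genes tested gave 7.25 and 4.58 against 3.35. It had the bottom value of its group in 22 of the 55 members (40%), a share near the 35.5% of all genes tested. Counts and medians of all members and of each complex are given with and without replicate 1 for both LINC00996 comparisons. So are the values of members described below whose call changed without replicate 1. For other lists, some medians are given with all libraries only or not at all. Below, replicate 1 with no group named is that of LINC00996, calls lost or passed without a library are those of the fit that left it out, and other alternatives are given together after the members.

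In the control libraries, ATP5F1B, the catalytic beta subunit of ATP synthase, had the most FPKM of all members, 233 ± 8.75 FPKM (mean ± SD, n = 3). Next came COX6B1, a complex IV subunit on the side of the intermembrane space, at 94.8 ± 27.2 FPKM. ATP5F1C, the gamma subunit of the rotating stalk, followed at 67.1 ± 6.20 FPKM and COX5A, a matrix-side subunit of complex IV, at 64.3 ± 5.78 FPKM. The COX6B1 libraries, from 64.4 to 117 FPKM, overlap those of ATP5F1C and COX5A, and ATP5F1B lay above all of these. In complex III, UQCRFS1, the Rieske iron-sulfur protein, had 51.5 ± 3.69 FPKM and CYC1, the cytochrome that hands electrons to cytochrome c, 44.5 ± 3.02 FPKM, with overlapping ranges. In complex II, SDHB, its iron-sulfur subunit, had 15.6 ± 0.988 FPKM and SDHA, its flavoprotein, 13.7 ± 0.352 FPKM. The assembly factors of complex IV had between 0.223 FPKM for COX20 and 13.6 FPKM for COX14.

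This order of genes holds for the length behind FPKM, which is that of all exons of a gene merged. SDHC has 14160 such bases and UQCRC2 5217, against a median transcript length of 460 and 586 in the annotation, while UQCRFS1 has 3475 by both. Per median transcript length, an alternative chosen after the values were seen, ATP5F1B was again the highest member, at 633 ± 23.7 (mean ± SD, n = 3, same unit per transcript length). Next were UQCRC2, a core protein of complex III, at 254 ± 13.1 and ATP5F1A, the alpha subunit of ATP synthase, at 243 ± 15.4, with overlapping ranges. UQCRFS1, at 51.5 ± 3.69, was the 7th of the 10 complex III genes. In complex II, SDHC was first at 159 ± 13.2 per transcript length, above SDHA at 56.9 ± 1.47 and SDHB at 54.8 ± 3.47. In complex IV, COX4I1 had 206 ± 14.7 and COX6B1 187 ± 53.8, which overlapped. Which transcripts of a gene were present was not measured.

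The tissue isoforms of complex IV were near or at the limit of these depths. COX4I2, COX6A2 and COX7B2 had 0 counts in all 9 libraries, as had ATP5MGL of complex V, and COX8C had 1 and 2 counts in LINC00996 replicates 1 and 2 and 0 in the others, so they were not detectable or barely so at this depth. COX4I1, COX6A1 and COX7B thus held 100% of the FPKM of their isoform pairs, and COX8A all but 0.0707% of its pair with LINC00996. COX6B1 held 99.7% of the COX6B pair in control and 99.9% in both other groups. For COX7A, the common form COX7A2 held 74.9 ± 1.98% in control, 72.8 ± 3.12% with LINC00996 and 71.7 ± 1.62% with AP001189.3 (SD, n = 3), and COX7A2L, which acts in supercomplex assembly, held 23.5%, 24.9% and 25.2%. The muscle form COX7A1 held 1.55, 1.57 and 1.56% in the control libraries, 2.44, 2.12 and 2.41% with LINC00996, and 3.21, 2.47 and 3.55% with AP001189.3. Its share was lowest in the control libraries, with no overlap with either other group. These shares rest on 11, 9 and 12 counts of COX7A1 in control, 24, 15 and 20 with LINC00996 and 21, 14 and 23 with AP001189.3. At such counts COX7A1 passed in no comparison. Per median transcript length, the same counts gave between 0.764 and 0.766% in control, 1.03 and 1.21% with LINC00996, and 1.20 and 1.76% with AP001189.3. By that length, COX7A2 held 67.6, 65.5 and 64.6% on average in control, LINC00996 and AP001189.3.

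**Figure D1:**
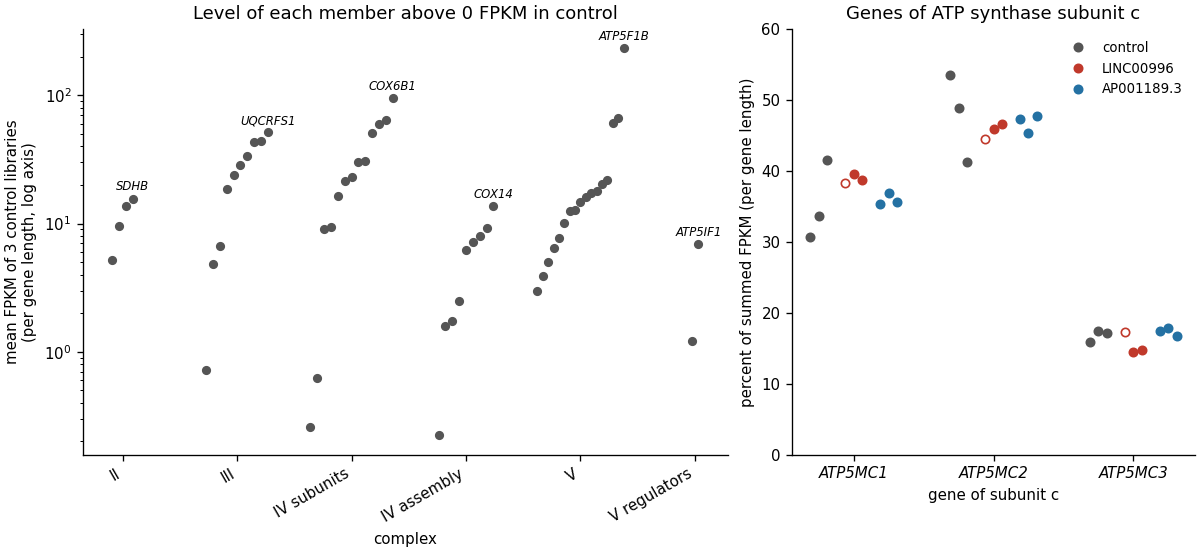
Left, mean FPKM (per merged exon length) of the 3 control libraries for each member above 0 (1 point per gene, log axis, by complex), with the top gene of each class named; ATP5F1B stands highest at 233 FPKM. Right, percent of the summed FPKM of the subunit c genes held by ATP5MC1, ATP5MC2 and ATP5MC3 in each library (points, open for LINC00996 replicate 1), with ATP5MC2 at 47.9% on average in control.

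The 5 members with few or no counts (COX8C, COX7B2, COX6A2, COX4I2 and ATP5MGL) did not pass edgeR's filter on low counts in any comparison, and the other 55 were tested in each. A member that passed the filter had to be detected in at least 1 of the groups compared, so counts over the 55 do not speak for all 60.

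With LINC00996 against control, 29 of the 55 members were higher at an adjusted p under 0.05 in edgeR, where 10.7% of all 16097 genes tested were higher. No member was lower in edgeR (0 of 55, with 0 also at an unadjusted p under 0.05 and 0 by DESeq2, which called 30 and 10.9% of all genes higher), where 11.6% of all genes were lower. The median log2 fold change of the members was 0.45, against 0.01 for all genes tested, and 51 of the 55 fold changes were above 0. The 29 that rose, with log2 fold changes from 0.29 to 2.06, were 3 genes of complex II, 4 of complex III, 8 subunits and 3 assembly factors of complex IV and 11 genes of complex V, and COX6A1 and ATP5MF had the largest fold changes. Members held 0.338, 0.329 and 0.344% of all counts in the control libraries, 0.514, 0.454 and 0.441% with LINC00996, and 0.349, 0.355 and 0.353% with AP001189.3. In bulk RNA, a change in the share of some cells and a change in the RNA of each cell cannot be told apart. Leaving out replicate 1 gave 30 members higher, where 15.9% of all genes were, and 0 lower in edgeR (0 at an unadjusted p under 0.05), where 17.3% of all genes were, with a median log2 fold change of 0.34. Of the 29, 27 passed again without it. ATP5MC2 and COX6B1 did not, while COX5B, COX7B and UQCRHL passed there and not with all 6 libraries. Leaving out a control library moved the count more: 18 members were higher without control replicate 1, 17 without control replicate 2 and 19 without control replicate 3. In these fits, 5.59, 4.84 and 5.52% of all genes were higher. All 6 fits that left out a library called 14 of the 29. Each of these fits called between 4.84 and 15.9% of all genes higher. How many of all genes were called in every one of them is not given here.

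With AP001189.3 against the same control libraries, 15 members were higher in edgeR, where 11.4% of all 16023 genes tested were higher, and 4 were lower, where 8.49% of all genes were lower. Those lower were UQCRQ, COX7B, ATP5F1C and ATP5MPL, and those higher were 1 gene of complex II, 5 of complex III, 5 subunits of complex IV and 4 genes of complex V, with COX6A1 and ATP5MF again at the top. The median log2 fold change of the members was 0.03, against -0.0013 for all genes tested, and it was -0.014 under an offset for transcript length. Members that rose had log2 fold changes from 0.18 to 1.64, and those that fell from -0.34 to -0.24. An edgeR fit of all 9 libraries gave 4 higher (UQCRB, COX6A1, COX8A and ATP5MF) and 0 lower, and in that fit 344 of all 16560 genes were higher and 93 lower with AP001189.3. The count of members lower was between 5 and 8 under library size alone and the offsets. The count lower was 7 without control replicate 1 (9.80% of all genes) and 1 (ATP5F1C) without AP001189.3 replicate 2 (4.13%), and 10 members were higher without the latter, where 7.51% of all genes were. At an unadjusted p under 0.05, edgeR gave 18 higher and 10 lower (17.1 and 14.9% of all genes), and DESeq2 called 12 higher and 5 lower (9.77 and 7.24% of all genes), the 4 named and ATP5F1E.

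Of the 55 members, 26 were higher with LINC00996 than with AP001189.3 in edgeR, where 9.38% of all 16095 genes tested were higher, and 0 were lower (0 at an unadjusted p under 0.05 and 0 by DESeq2, which called 27 and 9.51% of all genes higher), where 12.1% of all genes were lower. Those higher were 1 gene of complex II, 3 of complex III, 6 subunits and 5 assembly factors of complex IV and 11 genes of complex V. The median log2 fold change was 0.39 for the members and 0.02 for all genes tested. Without replicate 1, 35 members were higher, where 20.3% of all genes were higher, and 1, COX19, was lower, where 21.3% of all genes were lower. The median was then 0.28, and all 26 were among the 35. Without AP001189.3 replicate 1, 2 or 3, the count of members higher was 13, 15 or 14, and the share of all genes higher was 3.62, 4.15 or 3.93%. The comparisons share libraries with each other, so each is given by its own values.

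**Figure D2:**
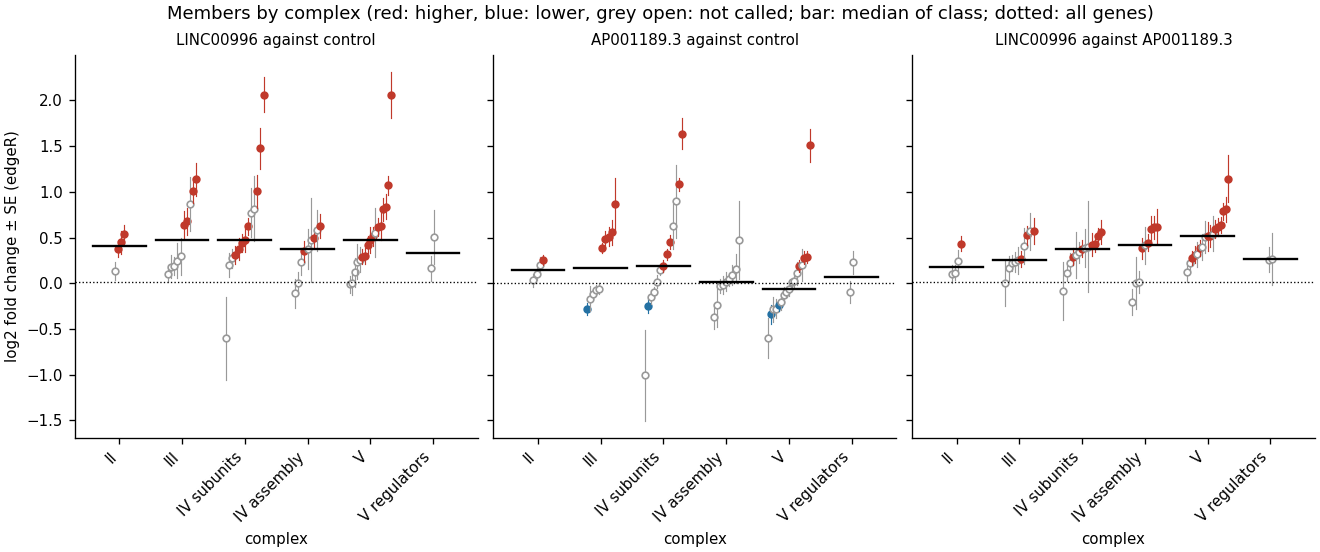
Log2 fold change (y axis, edgeR, bars of 1 standard error) of each of the 55 tested members by complex (x axis) in the 3 comparisons, filled red where higher, filled blue where lower and open where not called. Bars across a class mark its median, which with LINC00996 against control lies between 0.33 and 0.48 in every class, and the dotted line marks the median of all genes tested.

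**Figure D3:**
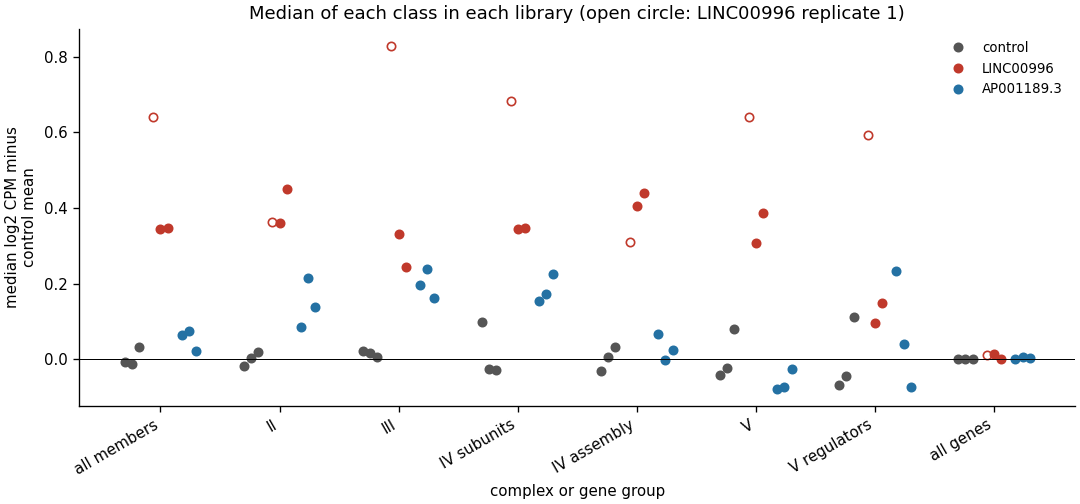
Median over the tested members of each class of the log2 CPM of a library minus the control mean (y axis), for each of the 9 libraries (points, open for LINC00996 replicate 1) and for all genes tested. All members together stand at 0.64, 0.34 and 0.35 in the LINC00996 libraries and between 0.02 and 0.07 in the AP001189.3 libraries.

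Promoters are shown for COX6A1, COX8A and ATP5MC1, which mark complexes IV and V here and were higher than control in both plasmid groups. RefSeq promoter sequences on GRCh38.p14 were found for 46 of the 60 members, 2 of them under newer symbols (ATP5MK for ATP5MD and ATP5MJ for ATP5MPL), with 56 entries in all. No entry was found for the other 14. The 250 bases before the start given in the promoter table are printed for the plus strand, at chr12:120437863-120438112 for COX6A1, chr11:63974370-63974619 for COX8A and chr17:48892537-48892786 for ATP5MC1. They end 23, 13 and 22 bases past the gene starts given in this report, and the marked GABPA site of COX6A1 and 1 CCAAT box of ATP5MC1 lie in those bases. Capitals mark each match on either strand to the letters of an NRF1 core, a GABPA site, an SP1 box, a CCAAT box or a CRE, which are spelled out after the sequences.
COX6A1: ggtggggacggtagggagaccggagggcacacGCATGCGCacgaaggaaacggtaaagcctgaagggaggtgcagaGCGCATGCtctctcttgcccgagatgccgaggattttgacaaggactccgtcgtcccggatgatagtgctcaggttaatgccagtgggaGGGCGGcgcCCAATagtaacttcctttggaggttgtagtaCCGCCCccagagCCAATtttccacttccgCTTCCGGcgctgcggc
COX8A: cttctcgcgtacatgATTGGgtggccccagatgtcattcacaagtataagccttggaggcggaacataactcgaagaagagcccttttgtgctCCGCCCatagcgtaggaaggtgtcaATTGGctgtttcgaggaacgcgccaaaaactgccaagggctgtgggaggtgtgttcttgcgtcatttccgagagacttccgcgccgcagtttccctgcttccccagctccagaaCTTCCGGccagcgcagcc
ATP5MC1: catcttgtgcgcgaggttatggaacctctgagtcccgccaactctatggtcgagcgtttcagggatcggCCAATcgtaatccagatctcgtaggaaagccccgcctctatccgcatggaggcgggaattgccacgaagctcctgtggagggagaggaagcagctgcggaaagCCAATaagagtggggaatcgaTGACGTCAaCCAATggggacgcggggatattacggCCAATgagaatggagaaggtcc
COX6A1 held 2 NRF1 cores, 1 GABPA site, 2 SP1 boxes and 2 CCAAT boxes, COX8A held 1 GABPA site, 1 SP1 box and 2 CCAAT boxes, and ATP5MC1 held 4 CCAAT boxes and 1 CRE.

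The letters were counted on both strands of all promoters of the table. Of the 56 entries of members, 19.6% held the NRF1 core GCATGCGC, against 2.63% of the 35116 promoters of the same length. The GABPA site CCGGAAG was held by 32.1% of the entries, against 8.52% of all promoters. Both factors are known as activators of nuclear genes for the respiratory chain. For the SP1 box, searched as GGGCGG, the shares were 53.6 and 42.6%. For the ERRA site, searched as AAGGTCA, they were 10.7 and 3.44%. The YY1 site AAGATGGCG was in 3.57% of the entries and 0.652% of all promoters. Those are 2 overlapping entries of 1 member, ATP5PF. The CCAAT box and the CRE (searched as TGACGTCA), added after the sequences had been read, gave 37.5 against 32% and 3.57 against 1.65%. Among members with an entry, an NRF1 core was held by 5 of the 21 that were higher with LINC00996 against control and by 5 of the other 22 that were tested, and a GABPA site by 10 and by 7. COX6A2, COX7B2 and COX8C had an entry but too few counts to be tested, and are in neither count. The shares compare letters only, and nothing on binding was measured.

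Complex II, whose 4 subunits were all tested, had 3 genes higher with LINC00996 than in control (median log2 fold change 0.41, and 3 with 0.43 without replicate 1). With AP001189.3 against control, 1 was higher (median 0.15), and 1 was higher with LINC00996 against AP001189.3 (median 0.18, and 2 with 0.22 without replicate 1). For this and each later class, the shares of all genes higher were 10.7, 11.4 and 9.38% in these comparisons, in that order. The shares lower were 11.6, 8.49 and 12.1%. Without replicate 1, 15.9% were higher and 17.3% lower with LINC00996 against control, and 20.3 and 21.3% against AP001189.3. SDHC (ENSG00000143252, chr1:161314257-161375340), a membrane anchor that helps bind ubiquinone, had 69.7, 70.3 and 80.9 CPM in control, 107, 106 and 109 with LINC00996 and 76.3, 81.8 and 79.1 with AP001189.3. The LINC00996 libraries all lay above the other 6, which overlapped each other. SDHC rose with LINC00996 by a log2 fold change (with its standard error, SE) of 0.54 (SE 0.10, padj = 0.00199) against control and 0.43 (SE 0.085, padj = 0.00399) against AP001189.3, and by 0.55 and 0.44 without replicate 1. Against control, AP001189.3 gave a log2 fold change of 0.10 (padj = 0.298). SDHA (ENSG00000073578, chr5:218241-256700), the flavoprotein that oxidises succinate, had 118, 115 and 113 CPM in control, 157, 148 and 145 with LINC00996 and 144, 139 and 129.8 with AP001189.3. Both plasmid groups lay above control without overlap, and LINC00996 above AP001189.3. Log2 fold changes were 0.38 (SE 0.087, padj = 0.00918) with LINC00996 and 0.26 (SE 0.056, padj = 0.00164) with AP001189.3 against control, and 0.12 (padj = 0.37) between the 2 plasmids. The call for LINC00996 was lost without control replicate 2 or 3 (log2 fold change 0.37 and 0.36). Pseudogenes named after SDHA had 15.5, 13.04 and 14.2% as many counts as the gene in control, LINC00996 and AP001189.3. SDHD (ENSG00000204370, chr11:112086773-112120013), the other anchor, had 26.1, 27.9 and 29 CPM in control, 33.7, 35.6 and 43.8 with LINC00996 and 29.8, 33.8 and 31.7 with AP001189.3. Control lay below both groups, and the call with LINC00996 at a log2 fold change of 0.45 (SE 0.12, padj = 0.0232) was lost without control replicate 1, 2 or 3 or LINC00996 replicate 3 (0.40, 0.45, 0.48 and 0.32). Against AP001189.3, SDHD passed without LINC00996 replicate 1 (log2 fold change 0.33). SDHB (ENSG00000117118, chr1:17018722-17054170), which carries the iron-sulfur clusters, had 40.3, 39.9 and 36 CPM in control, 42.5, 43.8 and 41.2 with LINC00996 and 40.5, 37.5 and 40.7 with AP001189.3. The LINC00996 libraries lay above the others, which overlapped, and its log2 fold changes were the smallest of this complex, 0.13 (padj = 0.384) with LINC00996 and 0.031 (padj = 0.828) with AP001189.3.

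Complex III had 4 of its 10 genes higher with LINC00996 than in control (median 0.47, and 5 with 0.29 without replicate 1). With AP001189.3, 5 were higher and 1 was lower (median 0.16). In LINC00996 against AP001189.3, 3 were higher (median 0.26, and 5 with 0.17 without replicate 1). In LINC00996 replicate 1 the median of this class stood 0.83 above the control mean in log2 CPM, against 0.33 and 0.25 in replicates 2 and 3. UQCRB (ENSG00000156467, chr8:96225920-96235634), a small subunit near the ubiquinone sites, had 53, 51.8 and 38.5 CPM in control, 111, 90.5 and 87.7 with LINC00996 and 65.5, 66.3 and 68 with AP001189.3. The 3 groups did not overlap, with control lowest and LINC00996 highest. UQCRB rose in all 3 comparisons, by a log2 fold change of 1.01 (SE 0.14, padj = 3.75e-04) with LINC00996 and 0.48 (SE 0.094, padj = 0.00198) with AP001189.3 against control, and 0.53 (SE 0.10, padj = 0.00412) between them. These were called in all 6 fits that left out a library, and without replicate 1 the first was 0.90 and the last 0.42. UQCRH (ENSG00000173660, chr1:46303631-46316776), the hinge protein next to the cytochrome of complex III, had 39, 37.2 and 25.4 CPM in control, 94.2, 67.7 and 61.4 with LINC00996 and 48.7, 49.4 and 51.3 with AP001189.3. Here too the groups were in the order control, AP001189.3, LINC00996 without overlap, and the spread was wide within control and within LINC00996. The log2 fold changes were 1.14 (SE 0.18, padj = 0.00109) and 0.56 (SE 0.14, padj = 0.0204) against control and 0.57 (SE 0.14, padj = 0.0135) between the plasmids. UQCRH lost its call with AP001189.3 against control without AP001189.3 replicate 1, 2 or 3 (log2 fold change 0.57, 0.56 and 0.54), and its call against AP001189.3 without AP001189.3 replicate 1, 2 or 3 (0.56, 0.57 and 0.60). The latter was 0.37 without replicate 1. UQCR10 (ENSG00000184076, chr22:29767369-29770413), another small subunit, had 20.5, 18.7 and 15.9 CPM in control, 34.4, 26.8 and 26.8 with LINC00996 and 29.5, 24.7 and 24.2 with AP001189.3. Both plasmid groups lay above control and overlapped each other, with log2 fold changes of 0.68 (SE 0.14, padj = 0.00567) and 0.51 (SE 0.11, padj = 0.00103).

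CYC1 (ENSG00000179091, chr8:144095027-144097525) had 86.1, 84.1 and 95.6 CPM in control, 178, 125 and 111 with LINC00996 and 118, 113 and 116 with AP001189.3. LINC00996 replicate 1 was far above the other libraries of its group, which overlapped the AP001189.3 libraries, and control lay below all of these. CYC1 rose by a log2 fold change of 0.64 (SE 0.15, padj = 0.01) with LINC00996, which was 0.42 without replicate 1 and passed there, and by 0.39 (SE 0.059, padj = 3.05e-05) with AP001189.3. With LINC00996 the call was lost without control replicate 1 or 2 (log2 fold change 0.62 and 0.60). UQCRQ (ENSG00000164405, chr5:132866560-132868031), a ubiquinone-binding small subunit, had 60.9, 65.3 and 65.3 CPM in control, 112, 63.9 and 58.4 with LINC00996 and 55.3, 48.9 and 53.6 with AP001189.3. Only LINC00996 replicate 1 was above control, and all AP001189.3 libraries were below control. UQCRQ fell with AP001189.3 against control, at a log2 fold change of -0.28 (SE 0.068, padj = 0.00407), a call lost without AP001189.3 replicate 2 (-0.23). With LINC00996 it had a log2 fold change of 0.29 (padj = 0.331), and -0.062 without replicate 1. Against AP001189.3 it had a log2 fold change of 0.57 (padj = 0.0645), and it passed the threshold without LINC00996 replicate 1 or 3 (0.22 and 0.74). UQCRFS1 (ENSG00000169021, chr19:29205321-29213541), whose named pseudogenes had 3.69, 1.85 and 2.28% as many counts as the gene in control, LINC00996 and AP001189.3, had 167, 180.2 and 194 CPM in control, 225, 199 and 193 with LINC00996 and 170.2, 170.1 and 172 with AP001189.3. LINC00996 and control overlapped, and AP001189.3 was below LINC00996, at a log2 fold change of 0.26 (SE 0.086, padj = 0.0488) for LINC00996 against AP001189.3, lost without LINC00996 replicate 2 or AP001189.3 replicate 1, 2 or 3 (0.29, 0.26, 0.27 and 0.27). UQCRHL (ENSG00000233954, chr1:15807169-15809348), a UQCRH-like gene, had 1.88, 1.74 and 1.09 CPM in control, 2.85, 2.22 and 3.52 with LINC00996 and 3.60, 2.67 and 2.30 with AP001189.3. Its 2 plasmid groups overlapped and lay above control. With AP001189.3 its log2 fold change was 0.86 (SE 0.28, padj = 0.0312), lost without control replicate 2 or 3 or AP001189.3 replicate 1 or 2 (0.94, 0.66, 0.66 and 0.91). With LINC00996 it had a log2 fold change of 0.87 (padj = 0.0519), and passed without LINC00996 replicate 1 or 2 (0.88 and 1.02). UQCRC2 (ENSG00000140740, chr16:21952660-21983660), a core protein, had 159, 144 and 148 CPM in control, 150.3, 168 and 167 with LINC00996 and 139.8, 138 and 137 with AP001189.3. LINC00996 overlapped control, and AP001189.3 lay below both. Its log2 fold change of 0.11 (padj = 0.444) with LINC00996, which did not pass, was the smallest of this complex. Against AP001189.3 it passed without LINC00996 replicate 1 (log2 fold change 0.28).

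Complex IV had 13 of its 17 subunit genes tested, and 8 of them were higher with LINC00996 than in control (median 0.47, and 9 with 0.34 without replicate 1). With AP001189.3, 5 were higher and 1 was lower (median 0.18). Against AP001189.3, LINC00996 had 6 higher (median 0.38, and 7 with 0.29 without replicate 1). COX6A1 (ENSG00000111775, chr12:120438090-120440742), a regulatory subunit in the membrane, had 16.2, 11.8 and 9.03 CPM in control, 60.8, 50.9 and 43.3 with LINC00996 and 34.8, 40.7 and 39.6 with AP001189.3. The order was control, AP001189.3, LINC00996 with no overlap, and control replicate 3 was the bottom library. COX6A1 rose by a log2 fold change of 2.06 (SE 0.19, padj = 2.37e-05) with LINC00996, the largest of all members there, and by 1.64 (SE 0.17, padj = 1.03e-04) with AP001189.3. The former was 1.93 without replicate 1. Between the plasmids it had a log2 fold change of 0.42 (SE 0.13, padj = 0.0366), a call lost without LINC00996 replicate 2 or AP001189.3 replicate 1, 2 or 3 (0.44, 0.36, 0.47 and 0.45). Pseudogenes named after COX6A1 had 24% as many counts as the gene in control, 5.57% with LINC00996 and 9.15% with AP001189.3, and with their counts added the log2 fold changes against control were 1.83 and 1.45. COX8A (ENSG00000176340, chr11:63974607-63976543), a small membrane subunit, had 32.8, 30.1 and 29.1 CPM in control, 124, 70.8 and 60.9 with LINC00996 and 65.4, 63.3 and 65.9 with AP001189.3. LINC00996 replicate 1 stood well above all other libraries, replicates 2 and 3 overlapped the AP001189.3 libraries, and control lay far below both groups. COX8A rose by a log2 fold change of 1.48 (SE 0.22, padj = 8.22e-04) with LINC00996, 1.10 without replicate 1, and by 1.08 (SE 0.071, padj = 2.81e-11) with AP001189.3. The plasmid groups differed by a log2 fold change of 0.39 (padj = 0.208), by 0.019 without replicate 1, and passed without LINC00996 replicate 3 (0.58). Of the exonic bases of COX8A, 34.5% lie in exons of AP000721.1 on the same strand. COX6B1 (ENSG00000126267, chr19:35648223-35658861) had 110.2, 97.1 and 60.9 CPM in control, 199, 175 and 164 with LINC00996 and 144, 138 and 131 with AP001189.3. Control replicate 3 was well below the other libraries, and the groups did not overlap. COX6B1 rose with LINC00996 by a log2 fold change of 1.00 (SE 0.18, padj = 0.00189), a call lost without LINC00996 replicate 1 (0.92), while AP001189.3 against control gave 0.62 (padj = 0.179) and passed without control replicate 3 (0.41). LINC00996 against AP001189.3 gave a log2 fold change of 0.38 (SE 0.094, padj = 0.014), lost without AP001189.3 replicate 2 or 3 (0.39 and 0.35).

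COX6C (ENSG00000164919, chr8:99873200-99894062), a small membrane subunit, had 50.9, 51.6 and 49.7 CPM in control, 81.5, 79.5 and 73.5 with LINC00996 and 56.4, 57.2 and 59.3 with AP001189.3. The LINC00996 libraries were above all others. Its log2 fold change of 0.62 (SE 0.095, padj = 7.60e-04) with LINC00996 and 0.43 (SE 0.09, padj = 0.00561) against AP001189.3 held in all 6 fits that left out a library, while that of 0.18 (SE 0.065, padj = 0.0459) with AP001189.3 was called in none of these 6, with values from 0.16 to 0.20. COX5A (ENSG00000178741, chr15:74919791-74938168) had 101, 87.4 and 86.3 CPM in control, 133, 116 and 123 with LINC00996 and 111, 114 and 117 with AP001189.3. Both plasmid groups were above control and overlapped each other. It rose by a log2 fold change of 0.44 (SE 0.10, padj = 0.00895) with LINC00996, lost without control replicate 2 or 3 (0.40 and 0.39), and by 0.32 (SE 0.062, padj = 5.59e-04) with AP001189.3. COX5B (ENSG00000135940, chr2:97646040-97648383), a zinc-binding matrix subunit, had 33.2, 34.8 and 33.1 CPM in control, 89, 45 and 38.8 with LINC00996 and 48.6, 46.9 and 43 with AP001189.3. LINC00996 replicate 1 was far above the rest, and replicates 2 and 3 were near the AP001189.3 libraries. COX5B rose with AP001189.3 by a log2 fold change of 0.45 (SE 0.075, padj = 8.68e-05), while with LINC00996 0.77 (padj = 0.0726) did not pass and passed without LINC00996 replicate 1, 2 or 3 (0.31, 0.93 and 0.99). The plasmid groups differed by a log2 fold change of 0.31 (padj = 0.418), and by -0.14 without replicate 1. COX7B (ENSG00000131174, chrX:77899438-77907373), a further small membrane subunit, had 72, 64.7 and 58.5 CPM in control, 81.7, 74.7 and 79.7 with LINC00996 and 56.2, 52.5 and 55.5 with AP001189.3. Its AP001189.3 libraries were below control and its LINC00996 libraries above it. COX7B fell, at a log2 fold change of -0.25 (SE 0.072, padj = 0.0148) with AP001189.3, lost without control replicate 1 or 2 or AP001189.3 replicate 2 (-0.17, -0.25 and -0.22), and rose by 0.52 (SE 0.09, padj = 0.00193) in LINC00996 against AP001189.3. With LINC00996 against control it had a log2 fold change of 0.27 (padj = 0.0817), and passed without LINC00996 replicate 1 (0.25).

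COX7C (ENSG00000127184, chr5:86617904-86620962), a small membrane subunit, had 102, 97.8 and 106 CPM in control, 177, 122 and 127 with LINC00996 and 94.6, 94.9 and 97.7 with AP001189.3. LINC00996 was above the other groups, which did not overlap either. COX7C rose by a log2 fold change of 0.47 (SE 0.13, padj = 0.024) with LINC00996, which was 0.28 without replicate 1, a call lost without control replicate 1, 2 or 3 (0.47, 0.44 and 0.50), and by 0.56 (SE 0.13, padj = 0.00945) against AP001189.3, lost without AP001189.3 replicate 1 (0.56). COX4I1 (ENSG00000131143, chr16:85798633-85807044), the subunit through which ATP inhibits the enzyme, had 159.9, 139 and 147 CPM in control, 232, 183 and 165 with LINC00996 and 164, 161 and 170.0 with AP001189.3. Control lay below both plasmid groups, which overlapped each other. COX4I1 rose by a log2 fold change of 0.38 (SE 0.12, padj = 0.0451) with LINC00996, which was 0.23 without replicate 1, a call lost without control replicate 1, 2 or 3 or LINC00996 replicate 2 (0.43, 0.33, 0.36 and 0.42), and AP001189.3 gave 0.15 (padj = 0.0591), which passed without control replicate 1 (0.20). COX7A2L (ENSG00000115944, chr2:42333546-42425088) had 50.3, 50.7 and 57.7 CPM in control, 63.6, 66.5 and 67.2 with LINC00996 and 56.7, 54.2 and 50.05 with AP001189.3. Its LINC00996 libraries lay above all others, while control and AP001189.3 overlapped, at a log2 fold change of 0.31 (SE 0.10, padj = 0.0411) against control and 0.29 (SE 0.094, padj = 0.0479) against AP001189.3. The former was lost without control replicate 1, 2 or 3 or LINC00996 replicate 2 or 3 (log2 fold change 0.27, 0.28, 0.38, 0.31 and 0.30) and the latter without LINC00996 replicate 2 or 3 or AP001189.3 replicate 1, 2 or 3 (0.28, 0.27, 0.33, 0.30 and 0.25). COX7A2 (ENSG00000112695, chr6:75237675-75250323), the common form, had 61.3, 49.7 and 63.4 CPM in control, 78.6, 61.1 and 60.6 with LINC00996 and 52, 50.2 and 55.1 with AP001189.3. Control overlapped both plasmid groups, which did not overlap each other. Its log2 fold changes of 0.20 (padj = 0.312) and -0.15 (padj = 0.194) against control did not pass, but AP001189.3 passed without control replicate 2 (-0.25) and under the gene length offset, and the former was 0.064 without replicate 1. LINC00996 against AP001189.3 gave a log2 fold change of 0.34 (padj = 0.0542), and passed without LINC00996 replicate 1 or 3 (0.21 and 0.40). COX7A1 (ENSG00000161281, chr19:36150922-36152869) had 0.647, 0.560 and 0.690 CPM in control, 1.31, 0.951 and 1.08 with LINC00996 and 1.24, 0.910 and 1.39 with AP001189.3. Both plasmid groups lay above control, but at these low counts it passed in no comparison, with a log2 fold change of 0.81 (padj = 0.124), 0.68 without replicate 1, and 0.90 (padj = 0.116) against control. COX6B2 (ENSG00000160471, chr19:55349306-55354814), the testis form, had 1.53, 0.933 and 0.518 CPM in control, 0.657, 0.824 and 0.487 with LINC00996 and 0.827, 0.390 and 0.242 with AP001189.3. All groups overlapped. Its log2 fold changes against control, the lowest of the subunits tested, were -0.60 (padj = 0.373) with LINC00996 and -1.01 (padj = 0.162) with AP001189.3, and -0.15 and -0.55 without control replicate 1.

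**Figure D4:**
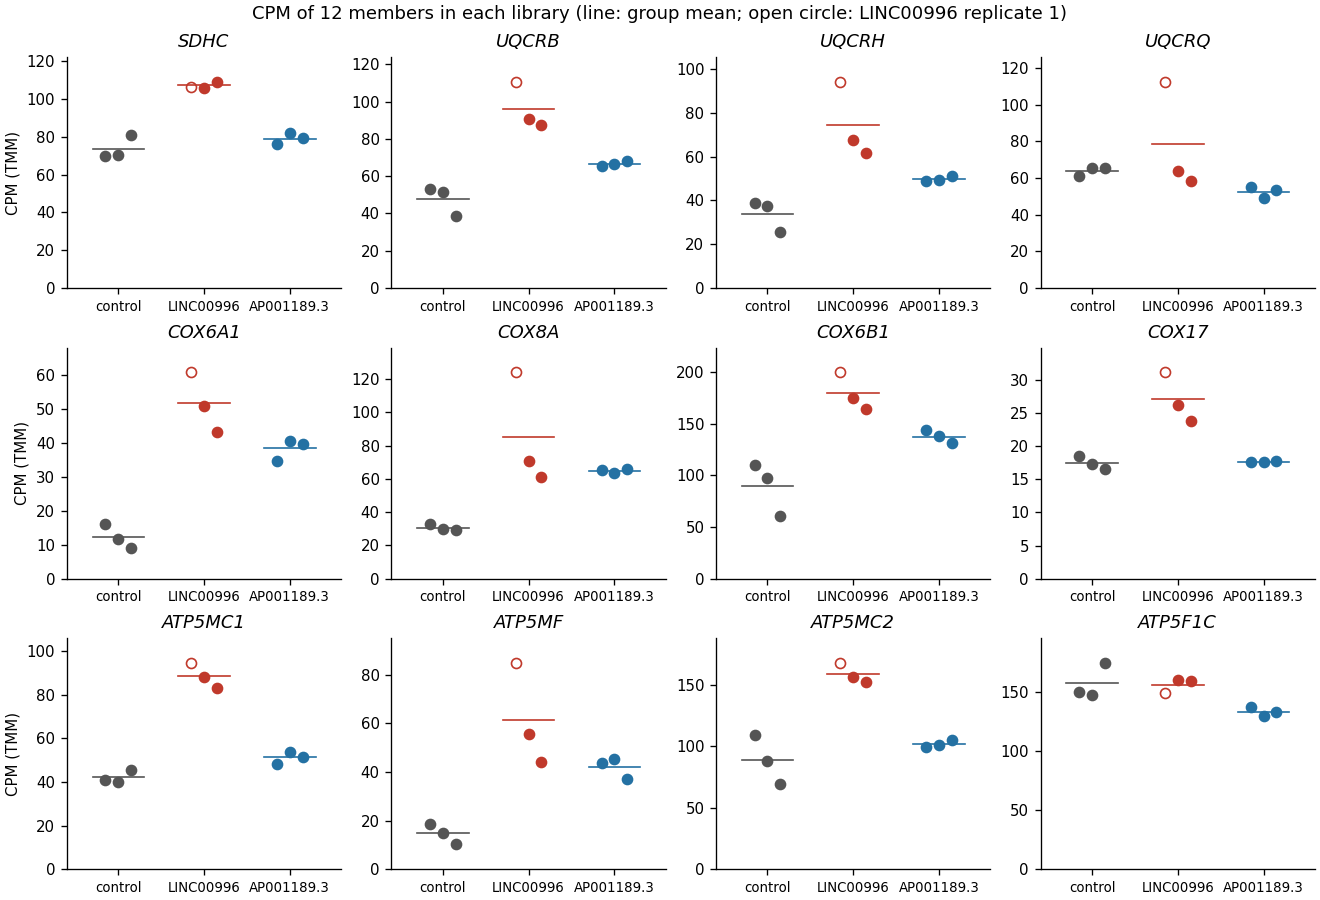
CPM after TMM scaling (y axis, linear from 0) of 12 members in each of the 9 libraries (points, open for LINC00996 replicate 1), with a line at each group's mean. COX6A1 ranges from 9.03 to 16.2 CPM in control and from 43.3 to 60.8 CPM with LINC00996.

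The assembly factors of complex IV, all 9 tested, had 3 genes higher with LINC00996 than in control (median 0.38, and 3 with 0.42 without replicate 1). With AP001189.3, 0 were higher and 0 lower in edgeR (0 and 1 at an unadjusted p under 0.05, and 0 and 0 by DESeq2; median 0.02). Against AP001189.3, LINC00996 had 5 higher (median 0.42, and 5 higher with 1 lower and 0.48 without replicate 1). COX17 (ENSG00000138495, chr3:119654513-119677454), the copper chaperone of the intermembrane space, had 18.6, 17.3 and 16.5 CPM in control, 31.1, 26.3 and 23.8 with LINC00996 and 17.7, 17.6 and 17.8 with AP001189.3. LINC00996 was above the other groups, which overlapped. It rose by a log2 fold change of 0.63 (SE 0.13, padj = 0.00524) against control and 0.61 (SE 0.12, padj = 0.00469) against AP001189.3, in all 6 fits that left out a library (0.52 and 0.50 without replicate 1). COX11 (ENSG00000166260, chr17:54951902-54968785), which inserts copper, had 39.3, 40.6 and 41.3 CPM in control, 54.8, 57.6 and 58.1 with LINC00996 and 43.4, 39.8 and 41.6 with AP001189.3. Its LINC00996 libraries were above all others too, at a log2 fold change of 0.49 (SE 0.10, padj = 0.00343) against control and 0.45 (SE 0.094, padj = 0.00617) against AP001189.3, the latter lost without AP001189.3 replicate 2 (0.42). COX15 (ENSG00000014919, chr10:99711844-99732100), an enzyme of heme A synthesis, had 39.8, 37.7 and 38.5 CPM in control, 42.6, 50.9 and 54.5 with LINC00996 and 35.2, 40.7 and 37.4 with AP001189.3. Here LINC00996 replicate 1 was the lowest of its group, yet above control. The log2 fold changes were 0.35 (SE 0.11, padj = 0.0446) against control, lost without control replicate 1, 2 or 3 or LINC00996 replicate 2 or 3 (0.37, 0.33, 0.34, 0.33 and 0.27), and 0.38 (SE 0.12, padj = 0.0398) against AP001189.3, lost without LINC00996 replicate 2 or 3 or AP001189.3 replicate 1, 2 or 3 (0.36, 0.30, 0.34, 0.44 and 0.38). Of the exonic bases of COX15, 25.6% lie in exons of AL133353.2. COX18 (ENSG00000163626, chr4:73052362-73069755), which inserts a mitochondrially encoded subunit into the membrane, had 9.41, 11.2 and 12.8 CPM in control, 13.5, 13.5 and 12.3 with LINC00996 and 9.57, 8.84 and 7.51 with AP001189.3. LINC00996 was above AP001189.3 without overlap, by a log2 fold change of 0.60 (SE 0.14, padj = 0.00992), lost without AP001189.3 replicate 3 (0.51), and AP001189.3 against control gave -0.36 (padj = 0.0653), which passed without control replicate 1 (-0.47). COX16 (ENSG00000133983, chr14:70325081-70359731), an assembly factor named after its values were seen, had 2.65, 4.11 and 3.11 CPM in control, 4.05, 4.31 and 4.44 with LINC00996 and 2.42, 2.99 and 2.91 with AP001189.3. Its LINC00996 libraries lay above AP001189.3, by a log2 fold change of 0.62 (SE 0.19, padj = 0.0405), a call lost without LINC00996 replicate 2 or 3 or AP001189.3 replicate 1, 2 or 3 (0.61, 0.58, 0.53, 0.68 and 0.66), and overlapped control, and 36.0% of its exonic bases lie in exons of other genes. COX19 (ENSG00000240230, chr7:898778-975599), needed for copper delivery, had 12.5, 14.1 and 15.2 CPM in control, 15.6, 11.4 and 11.8 with LINC00996 and 14.6, 14.8 and 15.3 with AP001189.3. All groups overlapped, and LINC00996 replicate 1 was the top library. Its log2 fold change with LINC00996 against control was -0.11 (padj = 0.659), and -0.27 without replicate 1, and that against AP001189.3 was -0.21 (padj = 0.334), which passed without LINC00996 replicate 1 (-0.36). COX14 (ENSG00000178449, chr12:50111979-50120457), also an assembly factor, had 14.1, 11.3 and 18.7 CPM in control, 29.2, 21.1 and 15.9 with LINC00996 and 19.3, 14 and 16.1 with AP001189.3. All groups overlapped. LINC00996 gave a log2 fold change of 0.58 (padj = 0.0836) against control and 0.42 (padj = 0.166) against AP001189.3, 0.32 and 0.16 without replicate 1. It passed without LINC00996 replicate 3 (log2 fold change 0.77) against control and without LINC00996 replicate 3 (0.60) against AP001189.3, and against control also by DESeq2.

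ATP synthase had 17 of its 18 genes tested. With LINC00996, 11 were higher than in control (median 0.48, and 10 with 0.34 without replicate 1). With AP001189.3, 4 were higher and 2 were lower (23.5 and 11.8%, against 11.4 and 8.49% of all genes), with a median of -0.06. In LINC00996 against AP001189.3, 11 were higher (median 0.51, and 15 with 0.37 without replicate 1). Subunit c, which forms the proton-driven ring, is encoded by ATP5MC1, ATP5MC2 and ATP5MC3, whose mature proteins are identical. ATP5MC1 (ENSG00000159199, chr17:48892765-48895871) had 40.9, 39.95 and 45.6 CPM in control, 94.4, 88.3 and 83.2 with LINC00996 and 48.4, 53.8 and 51.4 with AP001189.3. The order was control, AP001189.3, LINC00996 without overlap, and the gap to LINC00996 was wide beside the spread of each group. ATP5MC1 rose by a log2 fold change of 1.07 (SE 0.10, padj = 2.67e-05) with LINC00996, 1.02 without replicate 1, and by 0.79 (SE 0.094, padj = 1.52e-04) against AP001189.3. AP001189.3 against control gave a log2 fold change of 0.28 (SE 0.073, padj = 0.00723), lost without control replicate 2 or AP001189.3 replicate 2 (0.24 and 0.24). ATP5MC2 (ENSG00000135390, chr12:53632726-53677408) had 109, 88.4 and 69.2 CPM in control, 168, 157 and 153 with LINC00996 and 99.1, 101 and 105 with AP001189.3. Its control libraries spread widely and overlapped AP001189.3, while LINC00996 lay above both. It rose by a log2 fold change of 0.84 (SE 0.14, padj = 0.00135) with LINC00996, lost without LINC00996 replicate 1 (0.80), and by 0.64 (SE 0.085, padj = 3.07e-04) against AP001189.3, and AP001189.3 against control gave 0.20 (padj = 0.529), which passed without control replicate 1 (0.37). ATP5MC3 (ENSG00000154518, chr2:175176258-175184607) had 55.2, 53.6 and 48.9 CPM in control, 110.2, 84.1 and 81.8 with LINC00996 and 61.9, 67.8 and 62.8 with AP001189.3. Groups were in the same order as for ATP5MC1, without overlap, at a log2 fold change of 0.81 (SE 0.12, padj = 8.44e-04) and 0.29 (SE 0.068, padj = 0.00344) against control and 0.52 (SE 0.12, padj = 0.00965) between the plasmids, the last lost without AP001189.3 replicate 1 or 3 (0.49 and 0.50), and the first 0.66 without replicate 1. Of the FPKM of the 3 genes, ATP5MC1 held 35.3 ± 5.63%, 38.8 ± 0.637% and 35.9 ± 0.821% (SD, n = 3) in control, LINC00996 and AP001189.3, and these shares overlapped between control and both groups. Per median transcript length, its shares were 33 ± 5.09%, 36.6 ± 0.865% and 33.5 ± 0.680%, with the same overlaps.

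ATP5MF (ENSG00000241468, chr7:99448475-99466331), subunit f in the membrane part, had 18.7, 15.1 and 10.6 CPM in control, 84.8, 55.6 and 44.1 with LINC00996 and 43.5, 45.3 and 37.3 with AP001189.3. Both plasmid groups were far above control and overlapped, and control replicate 3 was the bottom library. ATP5MF rose by a log2 fold change of 2.06 (SE 0.25, padj = 2.49e-04) with LINC00996, the largest value of this complex, and by 1.51 (SE 0.18, padj = 8.44e-04) with AP001189.3. Without replicate 1 the former was 1.75, and the plasmid groups, which differed by a log2 fold change of 0.54 (padj = 0.0656), passed without LINC00996 replicate 1 or 3 (0.24 and 0.73). In the peripheral stalk that holds the catalytic head still, ATP5PB (ENSG00000116459, chr1:111448864-111462773) had 49.9, 48.7 and 53.5 CPM in control, 72.2, 81.7 and 79.7 with LINC00996 and 48, 55.9 and 50.8 with AP001189.3. LINC00996 was above the other groups, which overlapped, by a log2 fold change of 0.62 (SE 0.10, padj = 0.00104) against control and 0.59 (SE 0.10, padj = 0.00169) against AP001189.3. ATP5PD (ENSG00000167863, chr17:75038863-75046985) of the same stalk had 58.9, 54.8 and 54.7 CPM in control, 87.5, 76.2 and 76.5 with LINC00996 and 62, 68.5 and 62.1 with AP001189.3. Its 3 groups did not overlap, with log2 fold changes of 0.51 (SE 0.10, padj = 0.00341) and 0.19 (SE 0.067, padj = 0.0402) against control and 0.31 (SE 0.10, padj = 0.0383) between the plasmids. The AP001189.3 call was lost without control replicate 2 or 3 or AP001189.3 replicate 2 or 3 (log2 fold change 0.18, 0.17, 0.14 and 0.22) and that between the plasmids without LINC00996 replicate 2 or AP001189.3 replicate 1, 2 or 3 (0.35, 0.29, 0.37 and 0.30). ATP5PF (ENSG00000154723, chr21:25716503-25735673), also of the stalk, had 25.1, 26.6 and 27.9 CPM in control, 35.8, 34.6 and 35.6 with LINC00996 and 22.7, 24.2 and 22.1 with AP001189.3. AP001189.3 was below control and LINC00996 above it, without overlap. ATP5PF rose by a log2 fold change of 0.41 (SE 0.11, padj = 0.0148) with LINC00996, lost without control replicate 1 or 2 (0.37 and 0.41), and by 0.61 (SE 0.10, padj = 0.00143) against AP001189.3, and AP001189.3 against control gave -0.20 (padj = 0.11), which passed under the gene and transcript length offsets.

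ATP5MPL (ENSG00000156411, chr14:103912288-103928269), a small protein of the membrane part, had 32.6, 30.9 and 41.1 CPM in control, 57.4, 42.8 and 45.2 with LINC00996 and 31.4, 26.2 and 25 with AP001189.3. AP001189.3 replicate 1 lay within the control range, and the LINC00996 libraries were above all others. ATP5MPL fell, at a log2 fold change of -0.34 (SE 0.11, padj = 0.0272) with AP001189.3, lost without control replicate 3 or AP001189.3 replicate 2 or 3 (-0.20, -0.30 and -0.27), and rose by 0.81 (SE 0.13, padj = 0.00147) in LINC00996 against AP001189.3. Against control, LINC00996 gave a log2 fold change of 0.48 (SE 0.14, padj = 0.0328), lost without control replicate 1 or 2 (0.42 and 0.39). ATP5ME (ENSG00000169020, chr4:672436-674338), subunit e, named after its values were seen, had 5.29, 5.60 and 3.34 CPM in control, 9.85, 5.14 and 5.79 with LINC00996 and 2.72, 3.58 and 3.09 with AP001189.3. LINC00996 lay above AP001189.3, and control overlapped both. LINC00996 against AP001189.3 gave a log2 fold change of 1.15 (SE 0.25, padj = 0.00772), the largest of all members there, 0.81 without replicate 1, a call lost without AP001189.3 replicate 1 (1.05). Against control it had a log2 fold change of 0.55 (padj = 0.164) with LINC00996, 0.21 without replicate 1, and -0.60 (padj = 0.055) with AP001189.3, the lowest of this complex there, which passed without control replicate 3 (-0.80) and in 6 of 10 other alternatives. Of its exonic bases, 61.6% lie in exons of MYL5 on the other strand. ATP5F1C (ENSG00000165629, chr10:7788129-7807815) had 150.2, 148 and 174 CPM in control, 149, 159.8 and 159.6 with LINC00996 and 137, 129.9 and 133 with AP001189.3. Control and LINC00996 overlapped, and every AP001189.3 library was below both. It fell, at a log2 fold change of -0.24 (SE 0.06, padj = 0.00503) with AP001189.3, in all 6 fits that left out a library, and had -0.011 (padj = 0.948) with LINC00996, the lowest of this complex, and 0.021 without replicate 1. LINC00996 against AP001189.3 gave a log2 fold change of 0.22 (padj = 0.0782) and passed without LINC00996 replicate 1 (0.26). ATP5F1B (ENSG00000110955, chr12:56638175-56646068) had 530.0, 537 and 570.3 CPM in control, 701, 654 and 651 with LINC00996 and 537, 556 and 554 with AP001189.3. LINC00996 lay above the other groups, which overlapped, by a log2 fold change of 0.29 (SE 0.082, padj = 0.0234) against control and 0.28 (SE 0.076, padj = 0.0218) against AP001189.3. The former was lost without control replicate 1, 2 or 3 or LINC00996 replicate 2 (log2 fold change 0.27, 0.28, 0.32 and 0.31) and the latter without LINC00996 replicate 2 or AP001189.3 replicate 1, 2 or 3 (0.30, 0.27, 0.29 and 0.29).

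Neither regulator of ATP synthase passed in edgeR in any comparison (0 of 2 in each, also at an unadjusted p under 0.05 and by DESeq2), except ATP5S without LINC00996 replicate 1 (log2 fold change 0.34) against AP001189.3. ATP5IF1 (ENSG00000130770, chr1:28236109-28246906), which blocks ATP hydrolysis by the enzyme, had 15.5, 13 and 17.9 CPM in control, 35.3, 15.1 and 15.6 with LINC00996 and 20.6, 19.1 and 15 with AP001189.3. LINC00996 replicate 1 was the top library and the others of its group lay within control. Its log2 fold change with LINC00996 was 0.51 (padj = 0.264), and -0.013 without replicate 1. ATP5S (ENSG00000125375, chr14:50312326-50335558) had 12.3, 15.1 and 13.7 CPM in control, 13.6, 15.9 and 16.6 with LINC00996 and 14.1, 11.6 and 12.6 with AP001189.3, and all groups overlapped.

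**Figure D5:**
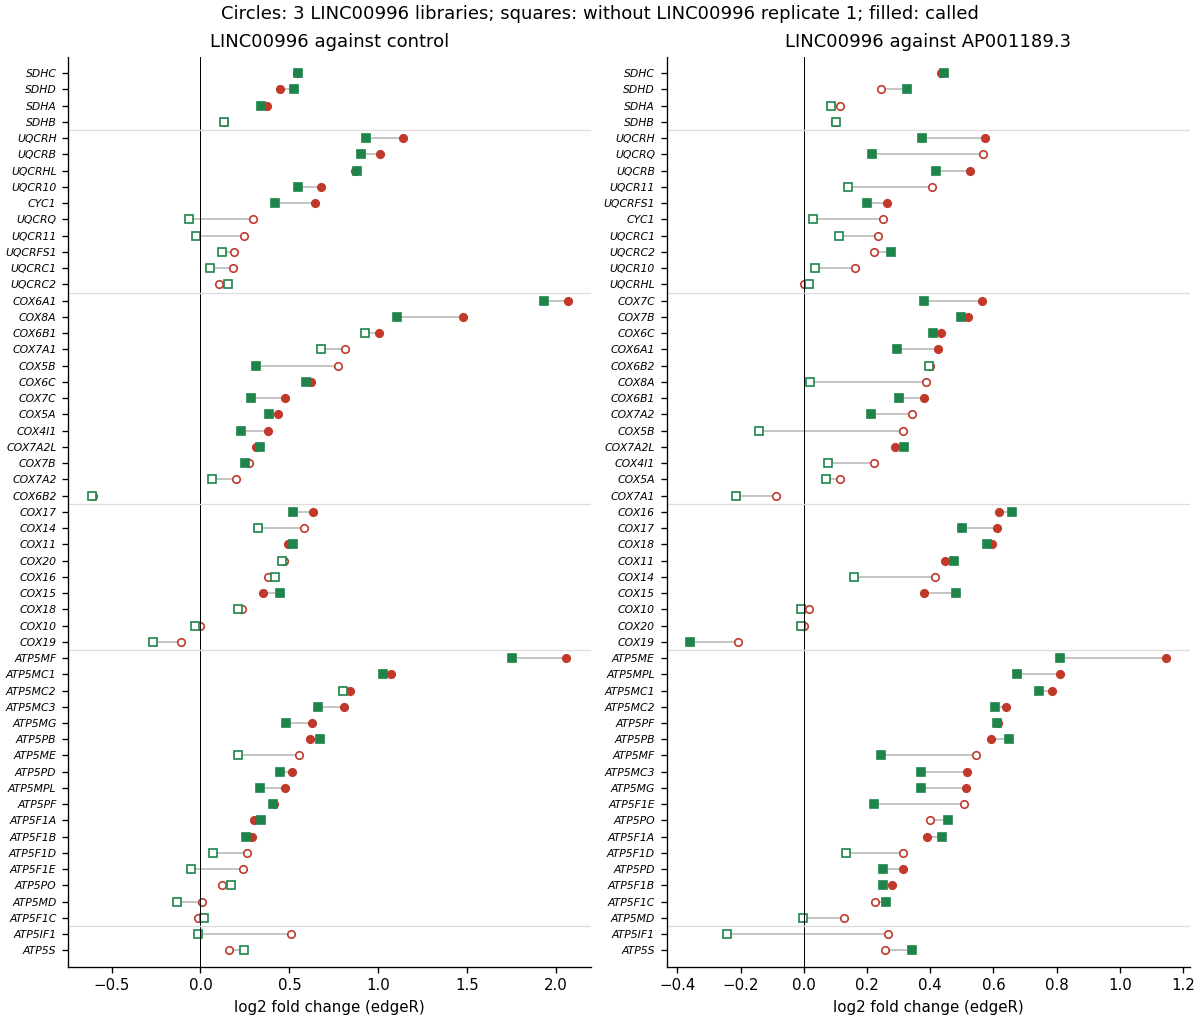
Log2 fold change (x axis, edgeR) of each tested member (y axis, by class) with all 3 LINC00996 libraries (circles) and without replicate 1 (squares), filled where called, against control at left and against AP001189.3 at right. COX8A goes from 1.48 to 1.10 against control and from 0.39 to 0.02 against AP001189.3.

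Each tested member was also fitted in 10 alternatives that kept every library (9 where a minimum of 10 counts left it out), with these changes in calls. UQCRHL was higher with LINC00996 than in control in 7 of them, COX5B in 4, COX7B in 3 and COX14 in 2. The call of COX7A2L was lost in 2, and those of SDHD, COX4I1, COX7C, ATP5F1A, ATP5F1B and ATP5MPL in 1. With AP001189.3 against control, ATP5ME was lower in 6, ATP5F1E in 4, ATP5PF in 2, and UQCRC1, UQCRC2, COX7A2, COX7C, COX18 and ATP5F1D in 1, and COX4I1 was higher in 1. The fit of all 9 libraries lost 15 of the 19 calls there, and other alternatives lost those of COX6C and ATP5PD (5 each), UQCRHL (2), COX7B, ATP5MC1 and ATP5MPL (1 each). LINC00996 was higher than AP001189.3 for COX7A2 in 7, UQCRQ and ATP5F1E in 6, ATP5MF in 5, UQCRC2 in 4, ATP5PO in 3, COX14, ATP5F1C and ATP5F1D in 2, and SDHA, SDHD, CYC1, UQCR11, UQCRC1, COX4I1 and COX8A in 1. Calls there were lost for UQCRFS1 in 5, COX7A2L in 3, COX16 in 2, and UQCRB, UQCRH, COX6A1, COX6B1, COX7C and ATP5PD in 1. All other members kept their calls.

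Mitochondrially encoded subunits of complexes III, IV and V moved as well. Of 6, 5 were higher with LINC00996 than in control (MT-CO1, MT-CO2, MT-CO3, MT-ATP6 and MT-CYB, median log2 fold change 0.66, where 10.7% of all genes were higher, and the same 5 with 0.41 without replicate 1, where 15.9% were). The call of MT-CO1 was lost in 5 of these 10 alternatives. MT-CO3 was higher and MT-ATP8 lower with AP001189.3 than in control (1 of 6 each way, where 11.4 and 8.49% of all genes were; median 0.03). The same 5 were higher with LINC00996 than with AP001189.3 (median 0.62, where 9.38% of all genes were), and all 6 without replicate 1 (median 0.50, where 20.3% were). MT-CO3, a core subunit of complex IV, had 3144, 3063 and 2578 CPM in control, 6847, 7753 and 7428 with LINC00996 and 3989, 4153 and 4118 with AP001189.3. The groups lay in the order control, AP001189.3, LINC00996 without overlap. MT-CO3 rose by a log2 fold change of 1.33 (SE 0.092, padj = 2.88e-06) with LINC00996 and 0.48 (SE 0.059, padj = 9.15e-06) with AP001189.3 against control, the former 1.37 without replicate 1. MT-ATP6, the channel subunit beside the ring of complex V, had 2240.1, 2655 and 2711 CPM in control, 4455, 4957 and 4954 with LINC00996 and 2589, 2819.7 and 2929 with AP001189.3. Its LINC00996 libraries lay above all others, by a log2 fold change of 0.92 (SE 0.091, padj = 3.67e-05) against control and 0.97 without replicate 1. MT-CYB, the membrane core of complex III, had 2431, 2557 and 2132 CPM in control, 3027, 3336 and 3413 with LINC00996 and 2465, 2517 and 2659.9 with AP001189.3. The LINC00996 libraries were above all others, by a log2 fold change of 0.46 (SE 0.089, padj = 0.00346) against control and 0.51 without replicate 1. MT-ATP8, the other mitochondrial subunit of complex V, named after its values were seen, had 10.2, 12.9 and 7.88 CPM in control, 38.4, 9.13 and 8.55 with LINC00996 and 5.61, 7.93 and 4.42 with AP001189.3. LINC00996 replicate 1 stood far above all other libraries, and AP001189.3 replicate 2 lay within the control range. MT-ATP8 fell with AP001189.3 against control, at a log2 fold change of -0.79 (SE 0.21, padj = 0.0138), a call lost without control replicate 2 or AP001189.3 replicate 1 (-0.60 and -0.74).

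Of 34 assembly and partner factors outside the rule, 33 were tested for LINC00996 against control, and 9 were higher (27.3%, where 10.7% of all genes were; median 0.25). Without replicate 1, 14 were higher (42.4%, against 15.9% of all genes) and SCO2 and SDHAF1 were lower (6.06%, against 17.3%). With AP001189.3 the shares were near those of all genes: CYCS, SCO2, TACO1 and UQCC3 were higher than in control (11.8%, against 11.4% of all genes) and ATPAF1, COA4 and LRPPRC were lower (8.82%, against 8.49%; median -0.08). Against AP001189.3, 12 were higher with LINC00996 (35.3%, against 9.38% of all genes; median 0.33) and SCO2 was lower (2.94%, against 12.1%). Without replicate 1, 20 were higher there (58.8%, against 20.3%) and SCO2 was again lower. CYCS, the cytochrome c that links complexes III and IV, had 91.1, 100.3 and 89.5 CPM in control, 142, 144 and 155 with LINC00996 and 98.9, 117 and 111 with AP001189.3. LINC00996 lay above the rest. CYCS rose by a log2 fold change of 0.65 (SE 0.093, padj = 4.85e-04) with LINC00996 and 0.22 (SE 0.064, padj = 0.0168) with AP001189.3. The former was 0.68 without replicate 1, and the latter call was lost without control replicate 3 or AP001189.3 replicate 2 or 3 (log2 fold change 0.19, 0.17 and 0.20). UQCC3, an assembly factor of complex III, had 5.17, 3.73 and 4.54 CPM in control, 15.9, 8.69 and 8.17 with LINC00996 and 8.98, 9.30 and 8.66 with AP001189.3. Both plasmid groups lay above control, and LINC00996 replicate 1 above all others. UQCC3 rose by a log2 fold change of 1.28 (SE 0.25, padj = 0.00382) with LINC00996, and by 0.91 without replicate 1. SDHAF3, an assembly factor of complex II, had 7.94, 7.78 and 7.36 CPM in control, 11.9, 12.4 and 10.8 with LINC00996 and 7.80, 9.75 and 7.03 with AP001189.3. Its LINC00996 libraries lay above all others, by a log2 fold change of 0.60 (SE 0.14, padj = 0.00855) against control and 0.59 without replicate 1. Among 12 regulators of mitochondrial gene expression, the shares called with all 6 libraries were near or below those of all genes. PPARA was lower with LINC00996 than in control (8.33%, against 11.6% of all genes; median of the list 0.0037). MYC was higher and PPARGC1A lower with AP001189.3 than in control (8.33% each, against 11.4 and 8.49%), and TFB2M was higher and MYC lower with LINC00996 than with AP001189.3 (8.33% each, against 9.38 and 12.1%). Without replicate 1, TFAM and TFB2M were higher and POLRMT and PPARA lower than in control (16.7% each, against 15.9 and 17.3% of all genes). The median of the list against control was then -0.13. Also without replicate 1, GABPA, PPARGC1A, TFAM and TFB2M were higher (33.3%, against 20.3%) and ESRRA, MYC and POLRMT lower (25%, against 21.3%) than with AP001189.3. PPARA, a nuclear receptor that controls fatty acid oxidation, had 27.5, 26.6 and 24.6 CPM in control, 16, 18.8 and 20.8 with LINC00996 and 25.7, 22.5 and 19.6 with AP001189.3. LINC00996 lay below control without overlap, and AP001189.3 overlapped both. PPARA fell with LINC00996, at a log2 fold change of -0.50 (SE 0.13, padj = 0.0156), a call lost without control replicate 1 or 2 or LINC00996 replicate 2 (-0.47, -0.49 and -0.51).

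The members share features that the rule did not use. Their annotated transcripts were short, by the median length over the transcripts listed for each gene. That length had a median of 716 bases for the 55 tested against 1716 for all genes tested. Median GC content was 47.2% against 50.01%. By this length SDHC has 460 bases and UQCRC2 586, against 14160 and 5217 of merged exons. The transcripts present were not measured, so the classes below hold for the annotation and not for the RNA in these cells. Genes with a mean of at least 10 CPM were put into classes by this length. In the class of up to 700 bases, which held SDHC and UQCRC2, 14 of 23 members were higher with LINC00996 than in control (median log2 fold change 0.51). Of 934 other genes there, 18.7% were higher (median 0.04). Between 700 and 1500 bases, 12 of 17 members were higher (median 0.45), against 19.2% of 2990 other genes (median 0.09), and between 1500 and 3000 bases 3 of 6 were (median 0.29), against 11.7% of 3139 others (median 0.0036). Over 3000 bases, none of COX18, COX19 and UQCRFS1 was higher (0 of 3 in edgeR, 0 at an unadjusted p under 0.05 and 0 by DESeq2; median 0.19), against 7.03% of 2746 others (median -0.080). Without replicate 1, the members higher were again 14, 12, 3 and 0 from the shortest to the longest (medians 0.41, 0.34, 0.20 and 0.12), against 23.8, 28.4, 20.1 and 15.7% of other genes. For LINC00996 against AP001189.3, they were 12, 8, 2 and 2, against 14.5, 14.6, 11.3 and 8.70% of other genes, and without replicate 1 they were 17, 11, 3 and 2, against 30.4, 29.2, 26.5 and 27.2%. For AP001189.3 against control, they were 9, 4, 1 and 0 (over 3000 bases also 0 at an unadjusted p under 0.05 and 0 by DESeq2), against 17.8, 20.2, 15.6 and 9.83%. For 31 members the annotation names pseudogenes, 109 in all, and in 5 members the counts of these exceeded 1% of those of the gene. For 8 members, over 25% of the exonic bases lie inside exons of other genes on either strand, 4 of them on the same strand, and 28 members share no exonic base. How reads from such bases were assigned was not tested.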

How the data were processed

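RNA of 9 libraries of transfected A549 cells was sequenced, with 3 libraries per group. The authors aligned reads to GRCh38 with HISAT2 2.0.5 and made a table of raw counts per gene with featureCounts 1.5.0-p3, and deposited FPKM over merged exon length and a depth other than the summed counts. FPKM were 0.990 to 0.997 times the value that summed counts give in control, 0.961 to 0.977 times with LINC00996 and 1.01 to 1.02 times with AP001189.3, so they were compared between genes or as shares within a library, not between groups. A count table of 58735 genes was tested in R 4.3.3 with edgeR 4.0.16 (filterByExpr, TMM, robust quasi-likelihood fit, Benjamini-Hochberg over all genes tested, threshold 0.05), with the 6 libraries of each comparison. Standard errors are the log2 fold change over the root of F. CPM use TMM-scaled library sizes, and log2 CPM a prior count of 2. With totals between 15272450 and 18125447 counts, a count near 10 per library has a wide relative error. The members and lists were chosen with earlier results of these data known. Genes are named if they are markers, called members of smallest adjusted p in a class and comparison (up to 4 each way), extremes of a class in fold change with LINC00996 against control, the 2 of highest control FPKM in a class, isoforms, or, in other lists, up to 3 called genes each way. Alternatives were DESeq2 1.42.0, library size alone, no filter, a minimum of 10 counts in each library, 1 fit of all 9 libraries, the replicate number as a block, an offset for gene length (loess span 0.75), counts summed with pseudogenes, and each library left out. Offsets for GC content and transcript length (GENCODE 29), levels per median transcript length, and leaving out overlapped members were added after seeing the data. The code was tested on simulated data. Promoters are from RefSeq.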

Additional observations from a re-analysis of the deposited data

How the results depend on the processing

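For the named members other than COX16 and ATP5ME, 628 of 774 log2 fold changes with 1 library left out kept their direction and threshold side. Under the other alternatives, 1278 of 1405 kept both. With LINC00996 against control, alternatives that kept every library gave 27 to 31 members higher and 0 lower, with medians from 0.40 to 0.48. Of all genes, 5.98 to 19.1% were higher and 5.95 to 17.8% lower in them. Without 1 library, members higher ranged from 17 to 30 with LINC00996 against control (median 0.34 to 0.49, all genes 4.84 to 15.9%), from 10 to 16 with AP001189.3 against control (all genes 7.51 to 12.1%) and from 13 to 35 with LINC00996 against AP001189.3 (median 0.28 to 0.43, all genes 3.62 to 20.3%). Members lower ranged from 1 to 7 with AP001189.3 against control (all genes 4.13 to 9.80%) and from 0 to 1 with LINC00996 against AP001189.3 (all genes 7.55 to 21.3%). With AP001189.3 against control, 7 members were lower under library size alone (all genes 10.7%) and under the transcript length offset (10.3%), 8 under the gene length offset (8.98%), 5 under the GC content offset (7.68%) and 0 with all 9 libraries in 1 fit, where 4 were higher. The median there was -0.014 under the transcript length offset, 0.072 under the GC content offset and 0.067 without overlapped members. The cause was not tested.

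Signs turned for small fold changes. With LINC00996 against control, ATP5F1C was 0.023 under library size alone and 0.030 under the GC content offset. With AP001189.3 against control, library size alone gave ATP5F1B -0.016, ATP5PB -0.0022, COX17 -0.0085 and COX7A2L -0.0057. The gene length offset gave ATP5F1B -0.080, ATP5PB -0.037, COX17 -0.074 and SDHB -0.054. The transcript length offset gave ATP5F1B -0.049, ATP5PB -0.013, COX11 -0.014, COX17 -0.041, COX7A2L -0.038 and SDHB -0.027. The GC content offset gave ATP5F1B -0.016 and COX15 0.00090. With LINC00996 against AP001189.3, UQCRHL was -0.0019 by DESeq2, -0.0039 with at least 10 counts in every library and -0.00039 with the replicate block, and COX7A1 was 0.046 under the GC content offset. The cause was not tested.

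Leaving out 1 library also turned the sign of some members, several of them named above, given from lowest to highest. With LINC00996 against control these were ATP5F1C (-0.058 to 0.066), ATP5IF1 (-0.013 to 0.72) and UQCRQ (-0.062 to 0.47). With AP001189.3 against control they were ATP5F1B (-0.014 to 0.040), ATP5PB (-0.039 to 0.071), COX15 (-0.091 to 0.014), COX17 (-0.025 to 0.062), COX7A2L (-0.024 to 0.086) and SDHB (-0.021 to 0.066). With LINC00996 against AP001189.3 they were ATP5IF1 (-0.24 to 0.47), COX5B (-0.14 to 0.53), COX7A1 (-0.23 to 0.052) and UQCRHL (-0.18 to 0.21).

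With the replicate number as a block, members higher and lower were 31 and 0 with LINC00996 against control (median 0.44, all genes 13.6 and 14.4%), 16 and 5 with AP001189.3 against control (median 0.03, all genes 12.2 and 9.46%), and 28 and 0 with LINC00996 against AP001189.3 (median 0.38, all genes 10.3 and 13.1%). Libraries of the same number in different groups correlated across genes with between -0.018 and 0.159, and other pairs with between -0.133 and 0.052. Of the 9 libraries, 6 correlated best with the library of their own number in both other groups, and 1 of the 9 same-number pairs exceeded 0.1. These correlations were weak, and the main fits did not treat the design as paired. Whether the replicate number marks libraries handled together is not stated and was not tested.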
